A study of Mus musculus with 30 samples.

Results

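Crisp4, Ptgs2, 1700009N14Rik, 5830403L16Rik and 1700034I23Rik are 5 mouse genes that gave a strong signal on 1 of the 2 arrays of fat and little or none on the other. Each was followed through the single probe that the study's probe lists pair with its symbol, so the members are 5 of the 25030 probes in the authors' value table. They were chosen for the values on the fat arrays, and those values are therefore described here without a test. Tests were limited to the 28 arrays of the other 14 tissues.

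The 30 arrays covered 15 tissues of adult C57BL/6 males, 2 arrays to a tissue. The labels give an age of 28 weeks, and the methods another age. The 14 tissues beside fat, which the methods call visceral, were bladder, bone, brain cortex, cerebellum, eyes, heart, kidney, both intestines, liver, lung, muscle, skin and stomach. No treatment or transgene was used, and every tissue RNA, labelled with Cy3, was hybridised together with the same Cy5-labelled reference, a pool of RNA from mouse cell lines and from embryonic stem (ES) cells. By the series description fat and bone were each collected once, yet the labels number the arrays of both as replicates 1 and 2. The methods state that replicates were from different animals, without naming an exception. The sources thus differ on whether the 2 arrays of fat, or of bone, are 2 animals, and p-values measure only the spread between arrays. The fat arrays lay on different slides and were scanned on different days. Slide, scan day, piece of tissue and fat replicate cannot be told apart.

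Crisp4 encodes a cysteine-rich secretory protein of the CAP family that is made by the epithelium of the epididymis, the duct in which sperm mature, and binds to sperm. 5830403L16Rik is now named Teddm2, a member of a small family of transmembrane proteins first described in the epididymis. Beta-defensins are small secreted antimicrobial peptides, many of which are also made in the epididymis. In male mice the epididymis lies against the epididymal fat pad, a commonly collected visceral fat. Which depot was taken here is not given in the sources used. Ptgs2 encodes cyclooxygenase 2, the inducible enzyme that converts arachidonic acid to prostaglandin H2, and it is known for transient induction by inflammation and injury and for a steady presence in cortical neurons. The names of 1700009N14Rik and 1700034I23Rik come from clones of an adult testis library, and no role is given for them here.

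Crisp4 (probe Z00061909-1) lies on chromosome 1 at 18114889-18145902, Ptgs2 (Z00034467-1) at 150100031-150108234 and Teddm2 (Z00030925-1) at 153849542-153851195 of the same chromosome in the RefSeq annotation of GRCm38.p6. In that annotation 1700034I23Rik (Z00043257-1) is on chromosome 3 at 40900196-40902501, and 1700009N14Rik (Z00044345-1) is on chromosome 4 at 39450293-39451780. All 5 are annotated as protein coding. The probes were oligonucleotides of 60 bases. Those of Crisp4 and Teddm2 are shown with those of Defb18 and Defb41, beta-defensin genes beside Crisp4, because these 4 probes carry the pattern described below and the letters show how little they share. Capitals mark the longest run that a probe had in common with any of the other 8 probes compared, which were those of the members, Defb18, Defb41, Teddm1a and Teddm1b.
Crisp4: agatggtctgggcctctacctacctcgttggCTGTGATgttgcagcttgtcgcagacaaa
Teddm2: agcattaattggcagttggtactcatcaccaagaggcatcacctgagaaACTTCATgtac
Defb18: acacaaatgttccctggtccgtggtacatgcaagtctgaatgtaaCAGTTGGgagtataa
Defb41: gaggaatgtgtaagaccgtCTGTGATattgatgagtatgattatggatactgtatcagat
No pair of the 9 probes shared a run of more than 7 bases and this held for the related Teddm genes too. Their GC content was between 35.0% and 53.3%.

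Crisp4 had a log2(Cy3/Cy5) of 6.72 on fat replicate 1 and 0.01 on fat replicate 2. On the other 28 arrays it ran from -0.39 to 0.59, the latter on kidney replicate 2. Fat replicate 1 thus stood above all other 29 arrays, and fat replicate 2 stood among the other tissues. In scanner units the Cy3 mean signal was 25310 on fat replicate 1 against 76.7 on fat replicate 2, and 63.2 to 131 with a median of 79.2 on the 28 arrays. For comparison, the brightest of the 153 negative control spots read 68.5 on fat replicate 1 and 80.7 on fat replicate 2. On the normalised Cy3 scale fat replicate 1 was about 279-fold above fat replicate 2, whose spot was below that brightest negative control, so the fold is approximate.

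Teddm2 (5830403L16Rik) had a log2 ratio of 4.12 on fat replicate 1 and 0.03 on fat replicate 2. The 28 arrays lay between -0.29 and 0.40, with the highest on brain cortex replicate 1. Its Cy3 signal of 30250 on fat replicate 1 stood against 65.2 on fat replicate 2 and at most 140 elsewhere. That spot was not well above background on fat replicate 2, so the fold, at least 537 on the normalised Cy3 scale, is a bound within that scale only. The log2 difference was 9.07 on that scale and 8.22 after quantile normalisation of the Cy3 level. The ratio gives a smaller difference, since its denominator, the Cy5 signal of the same spot, was 4760 on fat replicate 1 and 51.8 to 192 on the other 29 arrays.

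Ptgs2 differed from the others in that the reference contained its transcript. The Cy5 signal was 2652 on fat replicate 1 and 1995 to 3242 on the other 29 arrays, so the denominator did not move with the fat array. The log2 ratio was 2.59 on fat replicate 1, -2.05 on fat replicate 2, and -4.61 to -1.17 on the 28 arrays. Fat replicate 1 was the only array of the 30 on which the tissue gave more signal than the reference. The Cy3 signal was 6670 there, 99.2 on fat replicate 2, and 60.4 to 674 elsewhere, with the highest on lung replicate 1. Fat replicate 1 was 22.2-fold above fat replicate 2 on the normalised Cy3 scale, a log2 difference of 4.47. After quantile normalisation of the Cy3 level the log2 difference was 5.27, so the fold depends on the scale.

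1700009N14Rik had a log2 ratio of 4.38 on fat replicate 1 and 0.12 on fat replicate 2, the second highest of the 30 arrays, while the lowest array was at -0.40. Its Cy3 signal was 2626 on fat replicate 1, 90.7 on fat replicate 2 and at most 86.0 elsewhere. 1700034I23Rik had a log2 ratio of 4.18 on fat replicate 1 and 0.02 on fat replicate 2. The Cy5 spot of this gene was not well above background on any array, so its ratios have a denominator near background. Its next highest array was cerebellum replicate 1 at 1.04. Its Cy3 signal was 734 on fat replicate 1, 63.3 on fat replicate 2, where the spot was not well above background, and at most 112 elsewhere. The plot of the 5 genes by tissue shows fat replicate 1 apart in every panel. In bulk tissue, fewer cells of a type and less RNA per cell cannot be told apart.

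**Figure D1:**
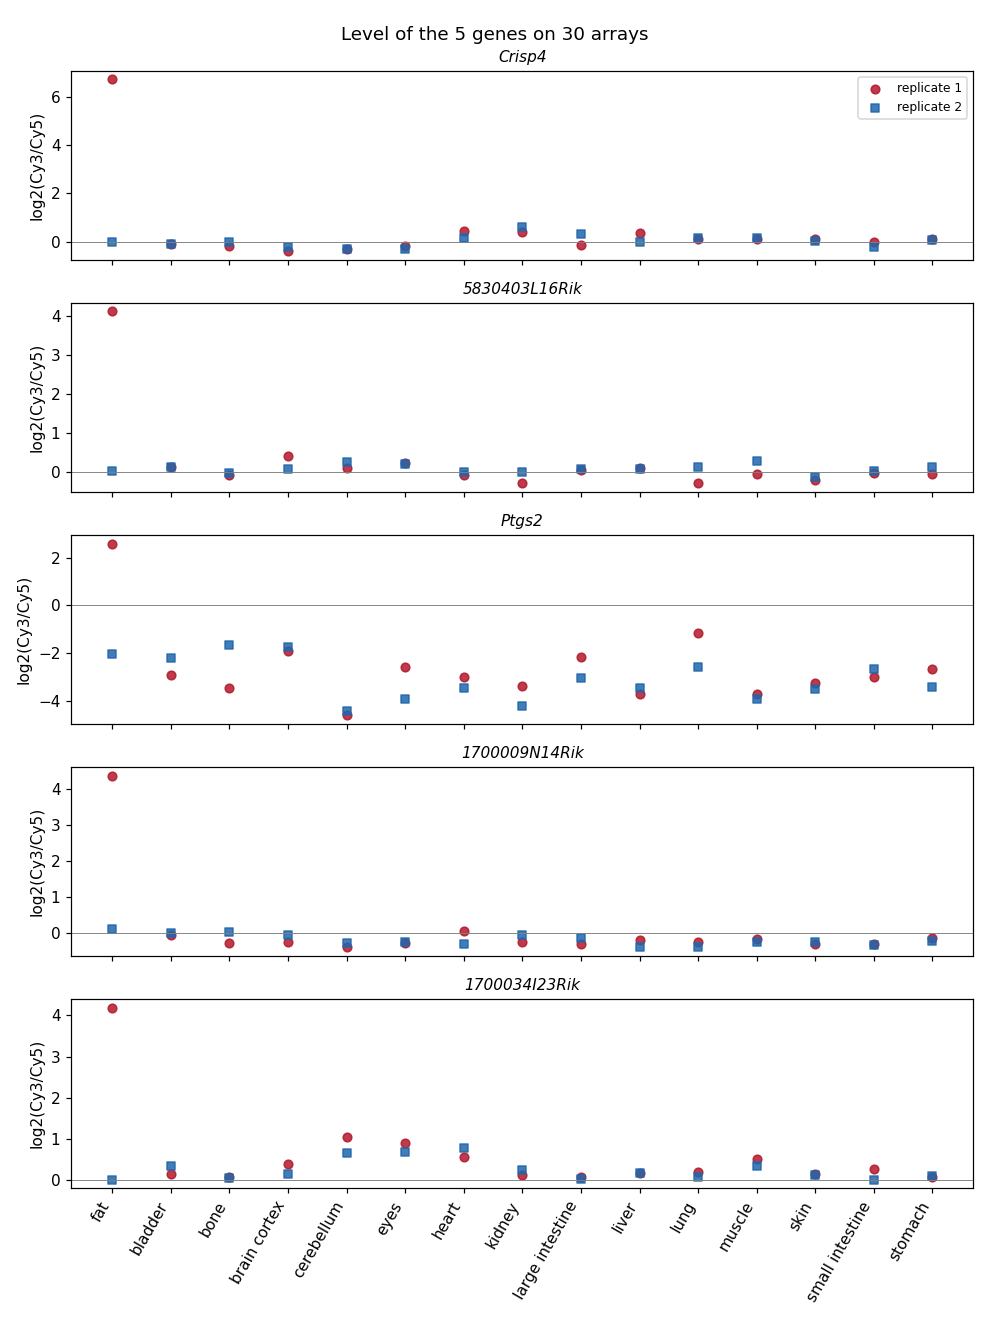
Log2(Cy3/Cy5) of the 5 genes (vertical axes, scaled per gene) in 15 tissues (horizontal axis), with a circle for replicate 1 and a square for replicate 2. The circle of fat lies above the other 29 arrays for each gene, from 2.59 for Ptgs2 to 6.72 for Crisp4, and the square of fat lies at or near the values of the other tissues.

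The differences between the fat arrays, replicate 1 minus replicate 2, were 6.71 for Crisp4, 4.64 for Ptgs2, 4.26 for 1700009N14Rik, 4.16 for 1700034I23Rik and 4.09 for Teddm2 on the log2 ratio scale. In the other 14 tissues the difference between the 2 arrays of a tissue had a root mean square of 0.20, 0.84, 0.17, 0.18 and 0.20 for the same genes. The fat differences chose the members, so the contrast is only a description. Spots near background can differ little on this scale. On the 28 arrays 1700009N14Rik was well above background on 1, 1700034I23Rik on 6 and Teddm2 on 4. Among the 18249 probes with a Cy3 signal well above background on at least 1 fat array, 499 (2.73%) were higher on fat replicate 1 by log2 3 or more, and 0 were lower by as much. With the processed signals the counts were 1289 higher and 64 lower, and with the authors' values they were 1177 and 44. The members ranked 12 (Crisp4), 133, 180, 197 and 213 of 18249 by the ratio. For 1700034I23Rik and Teddm2 the spot on fat replicate 2 was not well above background, so their differences and ranks are approximate. The order depends on the scale: on the normalised Cy3 level the difference was 9.07 for Teddm2 and 8.12 for Crisp4, and with the processed signals it was 7.30 for 1700034I23Rik, 6.98 for Ptgs2 and 6.61 for Crisp4.

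**Figure D2:**
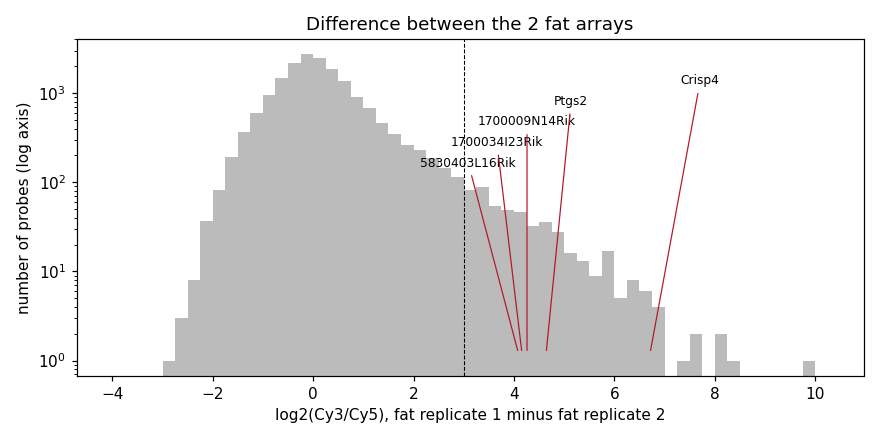
Number of probes (log axis) by the difference in log2(Cy3/Cy5) between fat replicate 1 and fat replicate 2, for 18249 probes, with the 5 genes marked and a dashed line at 3. The distribution has a long upper tail, up to 9.95, and its lower end is at -2.78.

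Of the 499 probes, 63 (12.6%) had a symbol, and fat replicate 1 was the highest of the 30 arrays for 214 (42.9%). The remaining probes were higher on at least 1 other array. Among the 15 named genes with the largest differences were C4bp, a complement regulator made in liver, at 6.50 on fat replicate 1, -0.17 on fat replicate 2 and 7.24 on liver replicate 2. They also included Crygc, a lens crystallin, at 6.36, -0.06 and 6.95 on eyes replicate 1, and 2210415F13Rik (now Lypd8), an intestinal epithelial protein, at 5.82, 0.08 and 6.77 on small intestine replicate 2. A pattern like that of Crisp4, near 0 on all 28 arrays of other tissues, was seen among these 15 in Defb18, Khdc1a and EG226601 (now Gm4846), whose highest values there were 0.33, 0.77 and 0.12. On fat replicate 2 the largest excess with a symbol was that of 5730437N04Rik (now Tmem242), at -0.97 and 1.61.

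The reference channel of the same spots was not constant. For Crisp4 the Cy5 signal was 563.5 on fat replicate 1 and 86.5 to 138 on the other 29 arrays, although the reference RNA was the same. For 1700009N14Rik it was 263.7 against at most 152. For Teddm2 it was 15.7% of the Cy3 signal of that spot and for Crisp4 2.23%. 1700034I23Rik, at 59.3, lay within the 49.1 to 91.7 of the other arrays, as did Ptgs2. Fat replicate 1 had the highest Cy5 signal of the 30 arrays for 191 (38.3%) of the 499 probes and for 529 (2.9%) of the 18249. The source of the Cy5 signal was not tested.

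**Figure D3:**
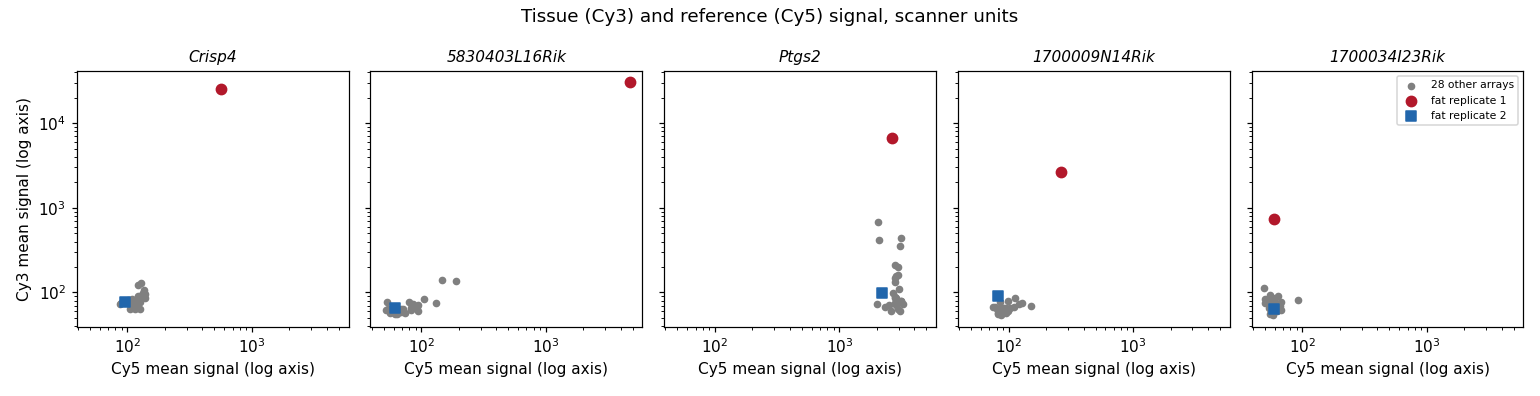
Cy3 mean signal of the tissue (vertical log axis) against Cy5 mean signal of the reference (horizontal log axis), in scanner units, for the 5 genes on 30 arrays. Fat replicate 1 (large circle) is high in Cy3 for each gene and is also to the right of the other arrays for Crisp4, 5830403L16Rik and 1700009N14Rik.

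Genes made in the epididymis stood out with Crisp4 and Teddm2. Of 66 genes on a list of epididymal genes, 7 were measured, and 6 of these were above all 28 arrays of other tissues on fat replicate 1 and higher than fat replicate 2 by log2 3 or more. The list was chosen with Crisp4 known to be high, and 2 of the 6 are members, so the count is a description. Of the 18249 probes, 2.73% were higher by log2 3 or more on this ratio scale, and 214 met both conditions. With median centring the difference of Teddm2 was 2.73, below log2 3. Defb18 had 6.22 on fat replicate 1 and -0.01 on fat replicate 2, and Defb41 had 3.70 and -0.60. EG433365 (now Teddm1b) had 4.22 and 0.01, and Teddm1 (now Teddm1a) had 3.59 and -0.02. The exception was 2310042E22Rik (now Teddm3), at -0.28 and -0.04, whose highest value was 3.84 on skin replicate 1. The summed Cy3 level of the list without the members was 82240 on fat replicate 1, 559 on fat replicate 2 and 375.9 to 27420 on the other 28 arrays. The highest of these was stomach replicate 2, where Teddm3 alone gave 27080. The part of epididymal RNA in the values of the members was not tested.

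These genes were also neighbours. On the higher-coordinate side of Crisp4 the nearest genes with a symbol are EG574082 (now Defb44-ps), Defb18 and Defb41. Defb44-ps, a defensin pseudogene, read 0.03 on both fat arrays, with a spot well above background on 0 of the 30 arrays. Crispld1, a CAP family gene on the other side, read 1.59 and 0.22, within the -0.49 to 2.88 of the 28 arrays. Teddm1b and Teddm1a are the nearest on the higher-coordinate side of Teddm2, and their Cy5 signals on fat replicate 1, 3855 and 3565, were raised like that of Teddm2, with at most 84.3 and 132 on the other 29 arrays.

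Of 36 genes of testis germ cells, 4 were measured. On fat replicate 1, 1 of these was higher by log2 3 or more, against 2.73% of the 18249 probes. This was Tnp1, a transition protein of spermatids, at 3.90 on fat replicate 1 and 0.02 on fat replicate 2. Adam32 read 2.04 and 0.02, Acrbp 0.33 and -0.25, and Spata3 0.55 and 0.01, and all 3 had higher values in another tissue. The summed Cy3 level of the 4 was 4759 on fat replicate 1, 964.6 on fat replicate 2 and 1171 to 2697 on the 28 other arrays, so fat replicate 1 was above all of them. The part of germ cell RNA in the values of the members was not tested. Of 34 adipocyte genes, 3 were measured. This list too was chosen with earlier results of these data known, so it describes the fat arrays and cannot check the labelled tissue. Inhbb read 1.82 and 1.45 on the fat arrays and 2400009B08Rik (now Fcor) 1.85 and 2.65, both above the 28 other arrays on either fat array. Dgat1, the enzyme of the last step of triglyceride synthesis, read 1.53 and 2.89. The summed Cy3 level of the 3 was 8378 on fat replicate 1, 31310 on fat replicate 2 and 1154 to 38060 on the 28 other arrays, with the highest on small intestine replicate 2, where Dgat1 read 4.45. The other genes of that list had no named probe here. No gene of the mesothelium list was measured, the 1 macrophage gene, Fcgr3, read 1.94 and 2.71, and of the 3 smooth muscle genes Des read 1.34 and 0.24, Lmod1 1.52 and 0.09, and Synpo2 0.21 and 0.22. The summed Cy3 level of these 3 was 1896 on fat replicate 1, 799.7 on fat replicate 2 and 444.2 to 69980 on the 28 other arrays. None of the 3 was above all 28 on fat replicate 1, and the part of smooth muscle RNA in the values of the members was not tested.

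Of 31 prostaglandin genes, 7 were measured. Ptgs2, chosen for that difference, was the only one higher on fat replicate 1 by log2 3 or more, against 2.73% of the 18249 probes. It was also the only one above the 28 other arrays. Pla2g4a, the cytosolic phospholipase that releases arachidonic acid and a near neighbour of Ptgs2 on chromosome 1, read -0.30 on fat replicate 1 and -1.41 on fat replicate 2. Abcc4, a transporter that exports prostaglandins, read -0.31 and -2.26. Both were higher on fat replicate 1, as Ptgs2 was, but by less than log2 3 (1.1 and 1.95). Ptges3 (-1.52 and -1.16), Cbr2 (1.83 and 2.24), Pla2g4b (-0.10 and -0.23) and 2810405K02Rik, now Prxl2b (2.60 and 3.72), lay within the range of the other tissues. The antisense transcript 7530420F21Rik (now Ptgs2os), adjacent to Ptgs2, read -0.03 and 0.03, but its spot was well above background on 0 of the 30 arrays, so these are ratios of background.

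**Figure D4:**
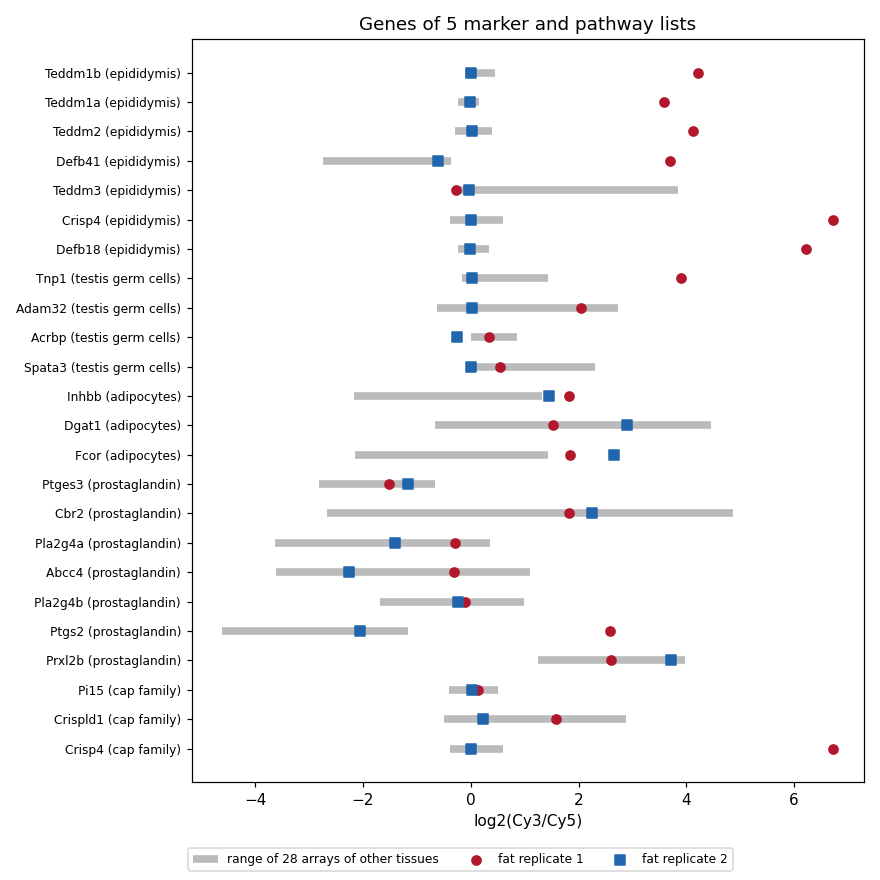
Log2(Cy3/Cy5) of the measured genes of the epididymis, testis germ cell, adipocyte, prostaglandin and CAP family lists (names in current symbols) on fat replicate 1 (circles) and fat replicate 2 (squares), with bars for the range of the 28 arrays of other tissues. Of the epididymal genes 6 of 7 lie to the right of their bars on fat replicate 1, as do Tnp1, Ptgs2 and the adipocyte genes Inhbb and Fcor.

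Differences among the other 14 tissues were tested without the fat arrays. The members were known to be low in these tissues when they were chosen, so low counts of calls there are not independent of the choice. A probe entered when at least 1 of the 14 tissues had Cy3 signals well above background on its 2 arrays, which 4 of the 5 members met. 1700009N14Rik did not. By the moderated F-test of limma, 3 of these 4 differed among the 14 tissues, against 92.4% of all 21000 probes tested. The adjusted p was 0.00332 for Crisp4, 0.00617 for Ptgs2, 0.000201 for 1700034I23Rik and 0.255 for Teddm2. With scan day as a fixed block Teddm2 was called too (adjusted p 0.0458). Teddm2 entered the test through brain cortex alone, its highest tissue, so this call is not independent of the filter. The share of 3 of 4 was not above that background. In contrasts of each tissue with the mean of the other 13, 0 of 56 pairs of a member and a tissue passed limma's test (adjusted p under 0.05) at a log2 difference of 2 or more, against 6.49% of all pairs of a probe and a tissue. An unadjusted p under 0.05 was found for 14 of the 56, against 55.7% of all pairs. Without the size limit 7 pairs were higher, against 21.9% of all pairs, and 5 were lower, against 28.4%. With the scanner software's processed signals, in which background correction and normalisation both differ, 8 of the 56 reached log2 2, of which 6 were of Ptgs2 and 2 of 1700034I23Rik, against 11.9% of all pairs under that processing.

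Ptgs2 was highest in brain cortex, at -1.83 ± 0.11 (SD, n = 2), and in lung, at -1.87 ± 0.99 (SD, n = 2), which did not differ beyond their spread. Cortex was 1.33 above the mean of the other 13 (SE 0.40, limma adjusted p 0.00824), a contrast in which 26.8% of all probes were called higher. With the processed signals the difference was 2.92, and that of lung was 2.78. With slide as a random block they were 1.07 (adjusted p 0.0486) and 1.3 (adjusted p 0.0227). With either cortex array left out the difference was 1.40 or 1.25, and the adjusted p was 0.0579 without replicate 1 and 0.0826 without replicate 2. Lung was 1.29 above (SE 0.40, adjusted p 0.0123), but this rested on lung replicate 1, at -1.17 against -2.57 for replicate 2, and without it the difference was 0.59 (adjusted p 0.417). Bone, bladder, large intestine, small intestine and stomach followed between -2.55 and -3.05, with SDs of 0.23 to 1.29. The place of bone depends on the processing: its mean Cy3 signal of 63.8 was well above background on 0 of 2 arrays, and with the processed signals it was below the mean of the others (difference -2.44, adjusted p 0.00584), as with the authors' table (-2.44, adjusted p 0.00512). On the log2 ratio scale used here cerebellum was lowest, at -4.51 ± 0.14 (SD, n = 2), and its difference from the mean of the others was -1.56 (SE 0.40, adjusted p 0.00265). On the Cy3 level alone that difference was -0.57 (adjusted p 0.102). With the processed signals it was -1.71, and bone, muscle (-2.39) and liver (-2.11) were lower. The Cy3 signal of cerebellum, 79.0, was well above background on both arrays, while bone, kidney, liver and muscle had 0 such arrays. The brightest negative control spots of the cerebellum arrays read 101 and 79.6, above the Ptgs2 signals of 78.8 and 79.1 there. The cortex and cerebellum arrays did not overlap in log2 ratio. Both lung arrays and both cortex arrays were well below fat replicate 1, which exceeded the mean of every tissue by 19.1-fold or more on the normalised Cy3 scale. The nearest single array was lung replicate 1, with a log2 Cy3 level of 9.32 against 13.10.

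1700034I23Rik was near background in most of these tissues, and its Cy5 spot was not well above background on any array. Cerebellum had 0.85 ± 0.27, eyes 0.79 ± 0.15 and heart 0.67 ± 0.16 (SD, n = 2 each), and these 3 did not differ beyond their spread. They were above the mean of the other 13 by 0.59 (limma adjusted p 0.000119), 0.52 (adjusted p 0.00049) and 0.39 (adjusted p 0.00554), each with an SE of 0.11. The gene entered the test through cerebellum and eyes, the only tissues with both spots well above background, and it drops out when 3 such tissues are asked for. With no filter the differences were the same, at adjusted p 8.31e-05, 0.00035 and 0.0043. Their size depends on the processing, at 2.90, 3.21 and 1.43 with the processed signals and 2.64, 2.40 and 1.39 with the authors' table. Each of the 3 tissues had both its arrays on the same slide, so the spread between them does not include that between slides. With slide as a random block (correlation 0.576) the difference was 0.49 for cerebellum (adjusted p 0.0158) and 0.58 for eyes (adjusted p 0.00702). Heart was not called without heart replicate 2 (0.28, adjusted p 0.167) or with slide as a random block (adjusted p 0.113), nor was cerebellum on the Cy3 level alone (0.23, adjusted p 0.0641). Muscle followed at 0.43 and the remaining 10 tissues lay between 0.06 and 0.28. The Cy3 signals of cerebellum, eyes and heart were 75.5 to 112 scanner units, and those of all 28 arrays began at 54.7. The brightest negative control spot was above the signal of the gene on both heart arrays (91.9 and 98.0 against 75.5 and 89.7) and on eyes replicate 2 (99.2 against 86.1). Fat replicate 1 was 7.58-fold above eyes, the nearest tissue on the normalised Cy3 scale. By log2 ratio the nearest was cerebellum.

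Crisp4 was highest in kidney, at 0.49 ± 0.15 (SD, n = 2), 0.50 above the mean of the others (SE 0.11, limma adjusted p 0.0015), and lowest in brain cortex and cerebellum, both at -0.30. On the Cy3 level alone the F-test did not call Crisp4 (adjusted p 0.0782). The Cy3 signals of kidney were 106 and 123, and the brightest negative control spots of these arrays read 95.9 and 130. Crisp4 on kidney replicate 2 was thus below its brightest negative control. The differences among the 14 tissues were small beside the excess of fat replicate 1 over kidney, about 205-fold on the normalised Cy3 scale. Teddm2 lay between -0.18 in skin and 0.24 in brain cortex, and 1700009N14Rik between -0.34 in cerebellum and -0.03 in bladder. Only 4 of the 28 arrays had a Teddm2 spot well above background.

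The genes most like each member over the 30 arrays owed that likeness to fat replicate 1. Crisp4 had a Pearson r of 0.98 with 1700009J07Rik and with 1700009N14Rik among 5252 probes with a symbol, but 0.55 and 0.28 over the 29 arrays without fat replicate 1. For Ptgs2 the closest was 1700009N14Rik, with 0.80 over 30 arrays and 0.36 over 29. For 1700034I23Rik it was 1700015G11Rik, with 0.94 and 0.56. Among the members themselves r was between 0.62 and 0.98 over 30 arrays and between -0.48 and 0.36 without fat replicate 1. These correlations are descriptive, since the arrays share a reference and 1 array sets their value.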

How the data were processed

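Gene expression in 15 adult mouse tissues was measured on 30 two-colour Agilent arrays (11 slides, 5 scan days) without dye exchange. The authors extracted spot values with Feature Extraction 9.5.1.1. Spot files as deposited give mean signal and background as an intensity in scanner units, the software's ratio as log10, and detection flags, which are other values. The authors' value table (25030 probes) holds log10 levels.

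Mean signals were background corrected (normexp, offset 50), 475 outlier spots (0.0377%) and control spots were removed, and arrays were normalised by loess and expressed as log2(Cy3/Cy5). Folds were taken from Cy3 levels after loess and Aquantile scaling. Where a spot was not well above background, its fold is a bound, computed against the higher of the lowest detected signal and the spot's own. The median Cy3 signal of an array was 85.7 to 175 units, and 53.9% to 76.9% of probes were well above background (67.7% on fat replicate 1, 57.9% on fat replicate 2). The number of arrays limits the precision.

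The models were fitted on 28 arrays without fat in R 4.3.3 (limma 3.58.1), with Benjamini-Hochberg adjustment over 21000 probes (threshold 0.05, two-sided), and were tested on simulated data. Symbols, given by the study's probe lists for 5622 probes of the table, were updated through RefSeq (GRCm38.p6), which held 5148 of them. The genes named are the members, the 3 most similar to each, the 15 with the largest and 5 with the smallest difference between the fat arrays, the list genes and neighbours of Crisp4 and Ptgs2. The neighbours of Teddm2 were added after its values were seen, and not all genes named by the rule are printed. The members and lists were chosen with earlier results of these data known. Alternatives were other background and normalisation choices, filters, slide, scan day and replicate blocks, and leaving out each array.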

Additional observations from a re-analysis of the deposited data

Results flagged for a closer look

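The Cy5 channel, which held the common reference and served only as a denominator, gave a signal on fat replicate 1 above that on every other array for 3 of the 5 genes. The Cy5 signal was 563.5 scanner units for Crisp4, against at most 138 on the other 29 arrays. It was 4760 for 5830403L16Rik, against at most 192, and 263.7 for 1700009N14Rik, against at most 152. The cause was not tested.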

How the results depend on the processing

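The excess of fat replicate 1 over fat replicate 2 kept its direction for all 5 genes under each processing, but its size moved. With the scanner software's processed signals it was 6.98 for Ptgs2, 3.18 for 5830403L16Rik, 2.82 for 1700009N14Rik and 7.30 for 1700034I23Rik. The authors' value table gave 6.98, 3.58, 2.82 and 7.28 for the same genes. Median centring gave 5.78 for Crisp4, 2.73 for 5830403L16Rik, 3.43 for 1700009N14Rik and 3.45 for 1700034I23Rik. The Cy3 level alone gave 7.62, 8.22, 3.97 and 2.77 for these. An alternative count, chosen after seeing the data, put 1289 probes higher on fat replicate 1 by log2 3 with the processed signals (64 lower) and 1177 with the authors' table (44 lower), against 499.

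In the tests without fat, 8 pairs of a member and a tissue reached log2 2 with the processed signals and 8 with the authors' table, against 0. Testing all probes of the array called 31459 of 34600. Leaving out 1 array at a time gave 19093 to 19882 probes, and 0 to 0 member pairs at log2 2. The call of Crisp4 was lost with the Cy3 level alone (adjusted p 0.0782), and 5830403L16Rik was called with scan day as a block (0.0458), which could be fitted for the F-test but not for single tissues. Ptgs2 in cortex was not called without cortex replicate 1 (0.0579) or replicate 2 (0.0826), nor in cerebellum with the Cy3 level alone (0.102). 1700034I23Rik was not called in heart with slide as a random block (0.113) or without heart replicate 2 (0.167), nor in cerebellum with the Cy3 level alone (0.0641).

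Replicate numbers were not used to pair the arrays in the main fit. Deviations of replicate 1 arrays of different tissues correlated from -0.248 to 0.343 (median 0.0501, 91 pairs). Such values cannot show whether arrays of the same number came from the same animal. With the replicate block, 19469 probes were called, and the F-test adjusted p was 0.005 for Crisp4, 0.0074 for Ptgs2, 0.2 for 5830403L16Rik and 0.000218 for 1700034I23Rik. Signals near background limit the tests of all members. Ptgs2 was well above background on 18 of the 28 arrays and Crisp4 on 19. With a filter of 3 tissues, 5830403L16Rik and 1700034I23Rik were not tested.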
